A study of Mus musculus with 9 samples.

Results

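The PGC-1, PPAR and ERR regulators are a set of 8 genes that set the capacity of a cell to burn fat and respire. They were taken as every probe set of the array with a single gene symbol among Ppargc1a, Ppargc1b, Ppara, Ppard, Esrra, Esrrg, Nrf1 and Tfam, which gave 14 of 20380 probe sets with 1 symbol, and 8 of 12393 genes. Ppargc1a had 5 probe sets, Nrf1 had 3 and each other gene had 1. Signals were read on 9 Affymetrix arrays, 6 of alveolar rhabdomyosarcomas of the mouse, a tumour of muscle-like cells, and 3 of skeletal muscle of the wild type, and the comparison asks how the tumours differ from muscle. The labels give neither the genotype or age of the tumour-bearing mice, nor the muscles taken, nor if each sample is a different animal. P-values therefore measure only the spread between these samples, which may be technical.

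PGC-1 proteins are coactivators: they bind no DNA themselves but attach to nuclear receptors such as the PPARs and ERRs and raise transcription of their target genes. PPARs are fatty acid-activated receptors that bind DNA with a retinoid X receptor partner, and ERRs are orphan receptors that bind without a known natural hormone and drive genes of respiration. NRF1 (nuclear respiratory factor 1, not the product of Nfe2l1) and ERR alpha carry the signal to nuclear genes of the respiratory chain. TFAM carries it to the mitochondrial genome, which it packages and whose transcription it helps to start. In skeletal muscle this network is known for the oxidative capacity of fibres and its increase with endurance exercise.

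The start regions of 3 of the genes that were lower in the tumours are shown because each holds a letter match to an element known from this network. They run from 250 bases before to 50 bases after the annotated start, 5′ to 3′ on the gene's strand, and come from RefSeq on GRCm38.p6. Capitals mark the match.

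Ppargc1a, chr5:51567676-51567975, minus strand: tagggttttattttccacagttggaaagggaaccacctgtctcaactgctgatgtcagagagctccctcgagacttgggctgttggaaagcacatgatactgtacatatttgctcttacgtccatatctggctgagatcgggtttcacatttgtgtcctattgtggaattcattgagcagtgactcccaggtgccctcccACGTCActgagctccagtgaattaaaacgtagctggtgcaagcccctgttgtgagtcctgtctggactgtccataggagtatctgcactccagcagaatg

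Ppara, chr15:85735526-85735825, plus strand: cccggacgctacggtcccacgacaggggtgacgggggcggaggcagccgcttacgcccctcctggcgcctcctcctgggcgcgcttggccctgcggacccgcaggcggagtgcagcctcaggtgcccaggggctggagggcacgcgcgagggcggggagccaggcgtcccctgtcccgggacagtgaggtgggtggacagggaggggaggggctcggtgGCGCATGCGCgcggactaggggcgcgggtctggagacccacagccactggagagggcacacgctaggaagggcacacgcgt

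Tfam, chr10:71237995-71238294, minus strand: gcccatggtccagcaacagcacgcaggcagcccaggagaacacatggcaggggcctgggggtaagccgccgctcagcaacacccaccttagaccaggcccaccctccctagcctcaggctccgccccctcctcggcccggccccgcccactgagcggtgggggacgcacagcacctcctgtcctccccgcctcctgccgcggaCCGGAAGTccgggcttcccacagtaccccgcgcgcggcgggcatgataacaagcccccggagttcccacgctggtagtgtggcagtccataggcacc

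Both strands were searched for the ERR half-site (AAGGTCA), the NRF1 site (GCGCA, any base, then GCGC), the Ets site bound by GABP, also called NRF2 (CCGGAAGT), and the half-site of the cyclic AMP response element (TGACGT). Ppargc1a held the cyclic AMP half-site on the opposite strand, its first base at -50 from the start, and 11.5% of the 9887 measured genes with a start region hold that motif (8.4% of all 27025 genes in the table). Ppara held an NRF1 site at -31, a motif found in 9.4% of the measured genes (5.2% of all). Tfam held the Ets site at -47, found in 7.2% of the measured genes (4.3% of all). The windows of Ppard, Esrra, Esrrg and Nrf1 held none of the 4 motifs, and no window of Ppargc1b was searched. These are letter matches, and factor binding was not measured.

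The signals are on a linear scale in arbitrary units, and muscle 1 and muscle 3 had been deposited on a lower scale and were multiplied by 1.6995 and 3.5493. No detection calls were used, and the lower quartile of all probe sets lay between 43.3 and 98.9 on the 9 arrays, so values in that range or under it may be background. For Gapdh, the 3′ probe set over the 5′ one, which reflects RNA integrity, gave ratios of 1.93 to 9.39 on the tumours, and 1.68, 57.17 and 33.0 on muscles 1 to 3. For Actb the ratios were 3.35 to 6.78 on the tumours, and 1.87, 4.06 and 4.35 on muscles 1 to 3. By Actb, muscles 2 and 3 thus lay within the tumour range. Summed over 12 muscle fibre markers such as Ckm and Myh4, the signal was 136513 in tumour 1 and 1791 to 29121 in the other tumours, against 216866 to 308105 in the muscles, and no marker read 0 on any array. In whole tissue, fewer cells of a type and less RNA per cell cannot be told apart.

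Ppargc1a, Ppara, Esrra and Tfam were lower in the tumours, while Ppard, Esrrg and Nrf1 did not pass the test and Ppargc1b passed only when tumour 1 was left out. By the brightest probe set of each gene, 4 of 8 members were called lower (limma, Benjamini-Hochberg adjusted p under 0.05), against 9.09% of all 12393 genes. None was called higher, against 8.66% of all genes, and none was higher at an unadjusted p under 0.05. By probe set, 8 of 14 were called lower, against 7.53% of 22626, and none was called higher, against 7.88%, although 1 Nrf1 probe set, 1420978_at, was higher at an unadjusted p of 0.00857. Every tumour lay below every muscle in 7 of the 14 (9.7% of all probe sets) and above every muscle in 2, both of Nrf1 (10.1% of all). The median log2 difference of the 8 genes, tumour minus muscle, was -1.24, and that of all genes was 0.10. If the arrays are left as deposited, the median of all genes becomes 0.785 and 1 of the 8 genes, Ppara, is called. In that setting the log2 distances from that median were -1.07 for Ppargc1b, -0.40 for Ppard, 0.13 for Esrrg and 0.48 for Nrf1, none called, and those of the other 4 genes are given with each gene.

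**Figure D1:**
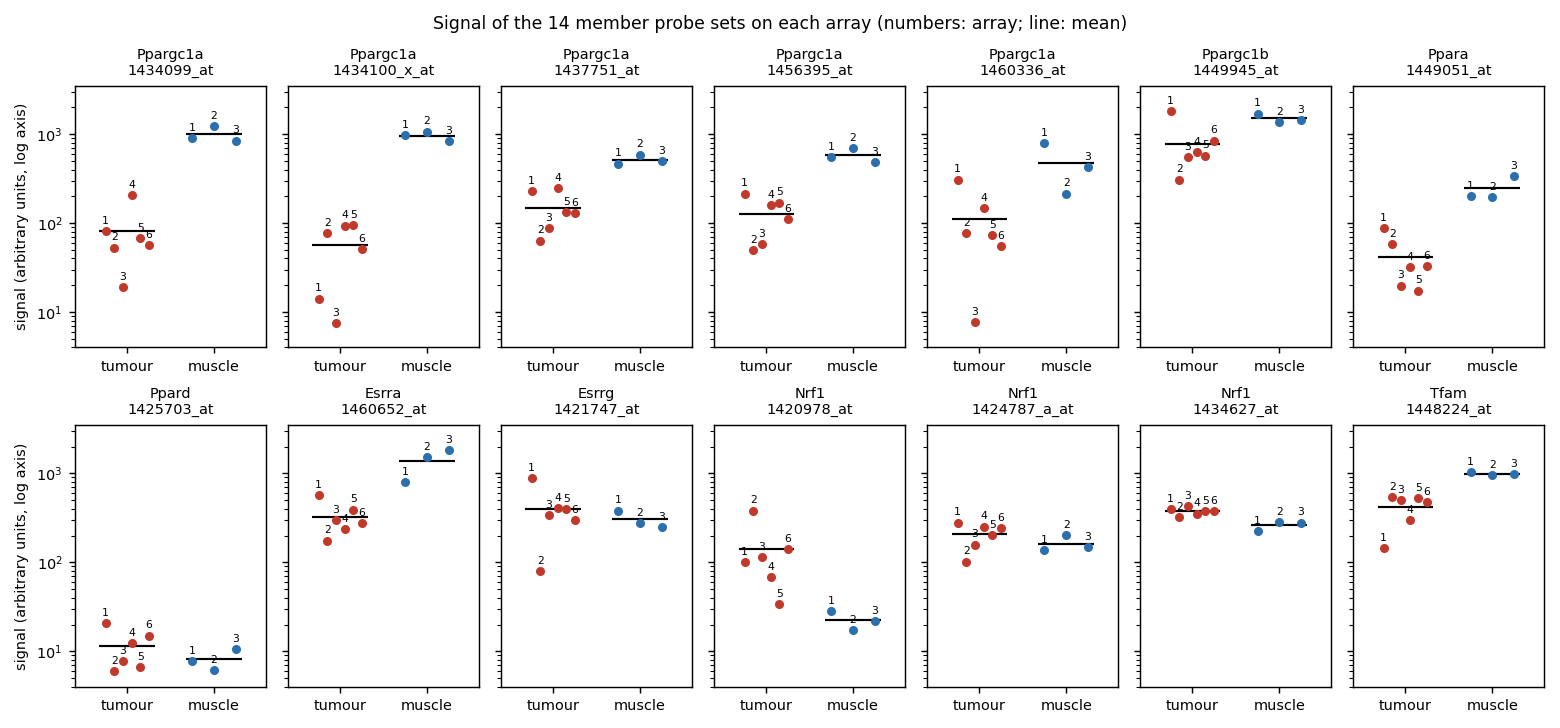
Signal (arbitrary units, log axis) of each of the 14 probe sets on the 6 tumour arrays (red, left) and the 3 muscle arrays (blue, right), with the array number at each point and a line at the group mean. All 5 Ppargc1a probe sets are dimmer in most tumours than in muscle, Tfam is lowest in tumour 1, and Ppard lies under 21 on all arrays.

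Ppargc1a encodes PGC-1 alpha, the inducible coactivator. Its probe set 1434099_at had signals of 81.8, 53.0, 18.9, 204.7, 68.3 and 56.8 in tumours 1 to 6, against 902.5, 1236.5 and 847.6 in muscles 1 to 3. The highest tumour, number 4, stayed well below the lowest muscle. The mean was 80.6 ± 64.3 in tumours (SD, n = 6), against 995.5 ± 210.5 in muscles (SD, n = 3), a log2 difference of -3.59 ± 0.52 (SE) on the scale of log2(signal + 16) with a limma adjusted p of 0.000359. The neighbouring 1434100_x_at, a design whose probes may also match other sequences, ran from 7.5 to 94.2 in tumours and from 837.7 to 1068.3 in muscles. It differed by -3.98 ± 0.56 (limma adjusted p = 0.000293). Both of these calls held without any 1 of the 9 arrays and on the scale as deposited. All tumour values of 1434100_x_at, and those of 1434099_at outside tumour 4, lie in or under the range of the lower quartiles given above. Signal there may be background.

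The other 3 Ppargc1a probe sets showed a smaller fall. The brightest of the 5, 1437751_at, which stands for the gene among all genes, had signals of 229.0, 63.5, 87.7, 248.8, 133.5 and 129.8 in tumours 1 to 6, against 466.0, 588.3 and 499.3 in the muscles. The groups did not overlap, and tumours 1 and 4 came nearest to muscle. Its log2 difference, the smallest of the 5, was -1.82 ± 0.45 (limma adjusted p = 0.0129). The call was lost without muscle 2 (adjusted p = 0.0745) or muscle 3 (0.0621). As deposited, it was -1.79 from the median of all genes, uncalled (adjusted p = 0.231). Probe set 1456395_at had 49.7 to 214.8 in tumours and 487.1 to 694.4 in muscles, a difference of -2.19 ± 0.48 (adjusted p = 0.00628) that was not called as deposited (0.113). Probe set 1460336_at overlapped between groups: tumour 1 had 308.9 and muscle 2 had 214.3, and its difference was -2.19 ± 0.69 (adjusted p = 0.0457). That last call was lost with an offset of 1 (0.0685), as deposited (0.14) and when any of tumours 2, 3, 5 and 6 or any muscle was left out (0.0578 to 0.208). As the mean over all 5 probe sets Ppargc1a differed by -2.75 (adjusted p = 0.000885). The transcript regions these probe sets read were not examined, and whether their differences are unequal was not tested.

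Ppargc1b encodes PGC-1 beta, a coactivator with a similar target range. Its single probe set had signals of 1801.2, 307.7, 554.4, 623.3, 572.1 and 843.5 in tumours 1 to 6, against 1700.7, 1364.1 and 1441.3 in the muscles. Tumour 1 lay above all 3 muscles and the other 5 tumours lay below all of them. The mean was 783.7 ± 527.0 in tumours (SD, n = 6), against 1502.0 ± 176.3 in muscles (SD, n = 3), a log2 difference of -1.13 ± 0.44 that was not called (limma adjusted p = 0.101). Without tumour 1 the difference was -1.41 and was called (adjusted p = 0.0079), as it was without tumours 1 and 4 (-1.45, adjusted p = 0.01). Over all settings that leave out 1 array, the adjusted p ran from 0.0079 to 0.261.

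**Figure D2:**
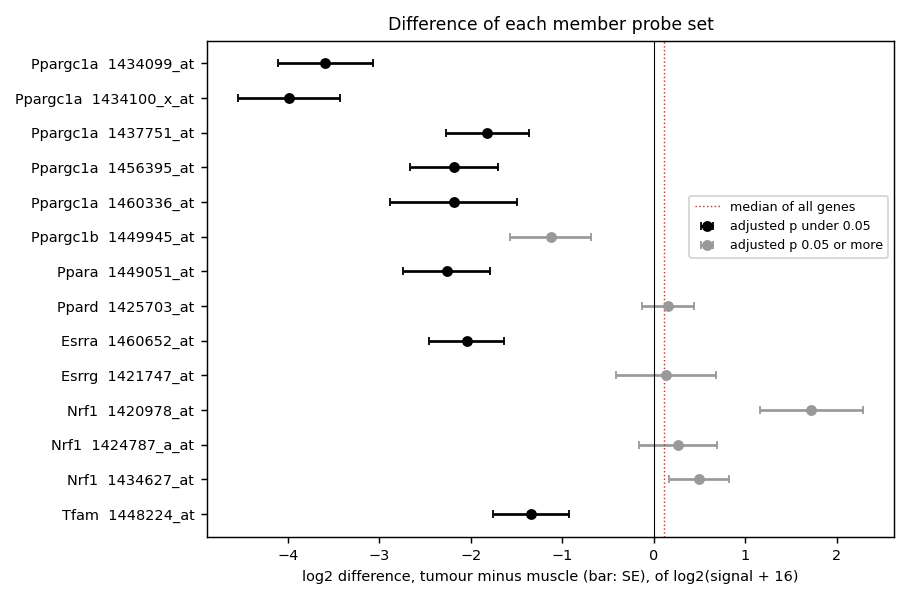
Log2 difference of each member probe set, tumour minus muscle, on the scale of log2(signal + 16), with its SE from limma; black points have an adjusted p under 0.05 over all probe sets and the dotted line is the median of all genes, 0.10. The Ppargc1a, Ppara, Esrra and Tfam probe sets lie on the lower side, from -3.98 to -1.34.

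Ppara encodes PPAR alpha, the receptor that switches on fatty acid oxidation during fasting. It had signals of 88.4, 58.1, 19.8, 32, 17.4 and 32.6 in tumours 1 to 6, against 202.8, 197.4 and 334.9 in the muscles. All tumours were below all muscles, and all 6 tumour values lie in or under the range of the lower quartiles given above, where signal may be background. The mean was 41.4 ± 27.2 in tumours (SD, n = 6), against 245.0 ± 77.9 in muscles (SD, n = 3), and the log2 difference of -2.27 ± 0.46 was called (limma adjusted p = 0.00395). It stayed called without any 1 array, with adjusted p from 0.000954 to 0.0354, and as deposited among genes (0.0495; -2.26 from the median of all genes), though not as deposited among probe sets (0.0587).

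Ppard encodes PPAR delta, the receptor with the widest tissue range. Its only probe set had signals of 6.0 to 20.6 in tumours and 6.2 to 10.6 in muscles. These values stood between percentiles 1.8 and 7.3 of the probe sets on their arrays, so the probe set gave no usable level in either group. The log2 difference was 0.16 ± 0.30 (limma adjusted p = 0.805).

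Esrra encodes ERR alpha, the receptor through which PGC-1 alpha raises genes of respiration. It had signals of 572.3, 175.9, 296.7, 236.8, 391.7 and 277.4 in tumours 1 to 6, against 800.8, 1519.5 and 1825.9 in the muscles. Tumour 1 was the highest tumour and muscle 1 the lowest muscle, and the groups did not overlap. The mean was 325.1 ± 140.5 in tumours (SD, n = 6), against 1382.0 ± 526.2 in muscles (SD, n = 3), a 4.13-fold lower level with a log2 difference of -2.05 ± 0.41 (limma adjusted p = 0.00346). The call held without any 1 array (adjusted p from 0.000794 to 0.0395), and as deposited the difference was -1.99 from the median of all genes, uncalled (adjusted p = 0.112). Muscle 1 had the lowest Gapdh and Actb ratios of the muscles. On its own, with muscles 2 and 3 left out, it gave a difference of -1.35. Whether RNA quality moved this level was not tested.

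Esrrg encodes ERR gamma, a receptor enriched in oxidative muscle and heart. It had signals of 888.5, 80.5, 338.6, 404.9, 395.8 and 301.5 in tumours 1 to 6, against 382.4, 278.6 and 251.0 in the muscles. Tumour 1 was above and tumour 2 below all muscles, and the other 4 tumours lay within or just above the muscle range. The difference of 0.13 ± 0.55 was not called (limma adjusted p = 0.917), and its direction turned without tumour 1 (-0.15).

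Nrf1 was read by 3 probe sets, none of them called. The brightest, 1434627_at, had signals of 396.9, 320.6, 425.0, 353.8, 378.9 and 377.4 in tumours 1 to 6, against 223.8, 285.5 and 280.7 in the muscles. Every tumour was above every muscle, and the tumours were close to each other, with a mean of 375.4 ± 35.8 (SD, n = 6) against 263.3 ± 34.3 in muscles (SD, n = 3). The log2 difference was 0.49 ± 0.33 (limma adjusted p = 0.371). Probe set 1424787_a_at had 102.1 to 279.6 in tumours and 136.9 to 202.9 in muscles, and differed by 0.27 ± 0.42 (adjusted p = 0.769). The dim 1420978_at had 33.8 to 382.4 in tumours, highest in tumour 2, against 17.3 to 28.3 in muscles, under the lower quartile of every array. Its difference of 1.72 ± 0.57 missed the threshold (limma adjusted p = 0.0536). It passed with an offset of 1 (0.0447), without the intensity trend (0.0474), as deposited (0.00948) and with the replicate block (0.0436). The call was also made without tumour 2 (0.049), without tumour 5 (0.029) and without tumours 1 and 4 (0.0494).

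Tfam encodes the mitochondrial transcription factor A. It had signals of 144.7, 541.6, 500.3, 298.1, 528.4 and 477.4 in tumours 1 to 6, against 1030.5, 960.7 and 977.7 in the muscles. The muscles were nearly equal, every tumour was below them, and tumour 1 was the lowest, the reverse of its place for Ppargc1b, Ppara, Esrra and Esrrg. The mean was 415.1 ± 159.2 in tumours (SD, n = 6), against 989.6 ± 36.4 in muscles (SD, n = 3), with a log2 difference of -1.34 ± 0.42 (limma adjusted p = 0.0391). This call is near the threshold: it was lost with quantile normalization (adjusted p = 0.0594), without the intensity trend (0.0506), without tumour 4 (0.0682) and without muscle 1, 2 or 3 (0.122, 0.123 and 0.137). As deposited the difference was -1.29 from the median of all genes, uncalled (adjusted p = 0.513).

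The tumours did not hold the members in one order. As a share of the muscle mean, tumour 1 had 44.2% for Ppargc1a (1437751_at), 119.9% for Ppargc1b, 36.1% for Ppara, 41.4% for Esrra and 292.3% for Esrrg, but 14.6% for Tfam. Tumour 2 had 12.3%, 20.5%, 23.7%, 12.7% and 26.5% for the same 5 genes and 54.7% for Tfam. Over the 7 genes other than Ppard, tumour 1 was the highest tumour for 4 and tumour 2 the lowest for 5. The arrays as a whole stood in that order too: tumour 1 was the highest tumour for 37.6% of all 12393 genes and tumour 2 the lowest for 39.2%, and their median signals were 275.8 and 144.4, the highest and the lowest of the 9 arrays. Tumour 1 also held the most muscle fibre marker signal, 53.9% of the muscle mean, against 11.5% in tumour 2 and 0.7% to 7.5% in the other 4 tumours, and its cre hybridisation control was the brightest, at 32500 against 5345 to 26648 on the other tumours. The part of any of these in the place of tumour 1 was not tested. In tumours 4 and 5 the fibre signal was 1.3% and 0.7%, and Ppargc1b was 41.5% and 38.1%. In the same tumours Ppargc1a was 48.0% and 25.8% by 1437751_at, 20.6% and 6.9% by 1434099_at and 9.8% and 9.8% by 1434100_x_at. The signals behind the 6.9% and both values of 9.8% may be background.

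**Figure D3:**
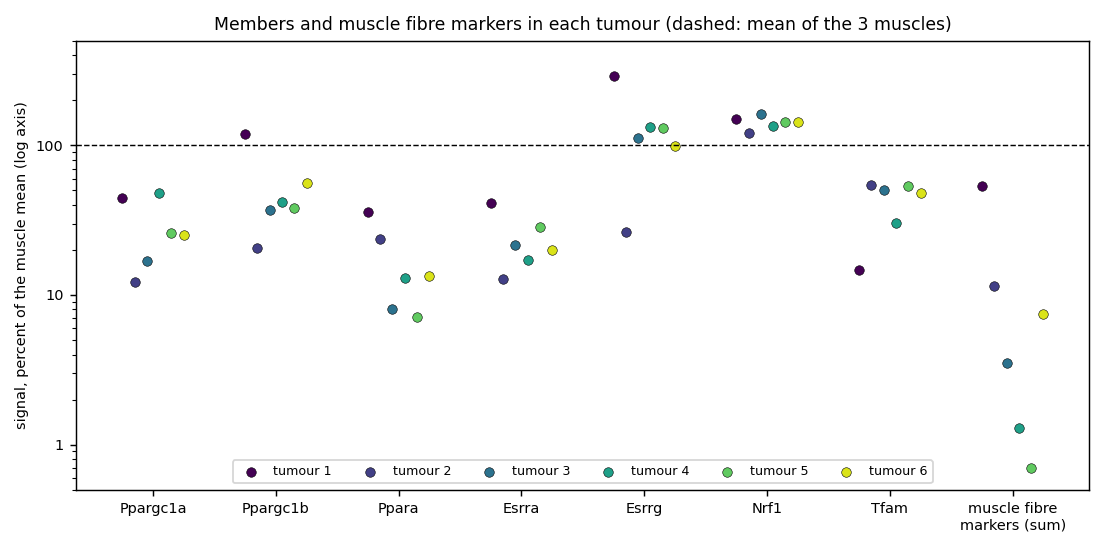
Signal of 7 members (brightest probe set of each) and the sum of 12 muscle fibre markers in each tumour, as a percent of the mean of the 3 muscles (dashed line at 100%, log axis), coloured by tumour. Fibre markers span 0.7% to 53.9%, Tfam 14.6% to 54.7% with tumour 1 lowest, and Nrf1 lies above 100% in all 6 tumours; Ppard, at background, is left out.

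The genes most like each member were found by Pearson correlation of log2 signals over the 9 arrays, among genes of above-median brightness. These values are descriptions: all arrays are shared, and the step between tumours and muscles enters each of them. Ppargc1a was most like Camk2g (0.979), Fbxo3 (0.972) and Pkdcc (0.972). Camk2g, a subunit of the calcium-dependent kinase CaMKII, also stood on the list of upstream signals. For Ppargc1b they were Krtcap3 (0.97), Tmem150a (0.968) and Acss2 (0.967), and for Ppara Myot (0.985), which encodes the Z-disc protein myotilin, Dhx32 (0.979) and Prelp (0.976). Esrra was most like Cpt2 (0.983), the inner-membrane carnitine palmitoyltransferase, then Spryd7 (0.974) and Smyd2 (0.971). For Esrrg they were Cotl1 (0.981), Serpina10 (0.977) and Nacc2 (0.977). Tfam was most like Ndufc2 (0.99), a complex I subunit, then Atp1b1 (0.989) and Map2k4 (0.986), and Nrf1 most like Cstf2 (0.958), Spsb2 (0.956) and Oasl1 (0.947). Ppard, at background, had Notum (0.947), Slc25a39 (0.941) and Mafk (0.909).

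Among partners of the members, those that were called were lower. Of 19 measured receptor partners and coactivators, 8 were called lower (42.1%, against 9.09% of all genes), 0 higher (against 8.66%) and 11 not. Their median log2 difference was -0.51. At an unadjusted p under 0.05 (limma) the counts were 9 lower and 0 higher. Lpin1, a phosphatidate phosphatase that also coactivates PPAR alpha, had 122.1 to 566.7 in tumours and 2793.6 to 3905.3 in muscles, and differed by -3.78 ± 0.44. Mef2c, a transcription factor known to act on the Ppargc1a promoter, had 214.3 to 4340.1 in tumours and 9223.0 to 12779.5 in muscles (-3.54 ± 0.72, or -2.78 as the mean of its probe sets), and Rxrg, a retinoid X receptor, differed by -2.70 ± 0.48. Rxra, the retinoid X receptor that pairs with PPARs in many tissues, was named after its values were seen: it averaged 266.2 in tumours and 1457.6 in muscles, a difference of -2.41 ± 0.36 (limma adjusted p = 0.000467). Members of the set's own families did not pass: Pprc1, the third PGC-1 family gene, differed by 0.44, Pparg by -0.30 and Esrrb by 0.13. As deposited, 4 of the 19 were called lower, against 369 of all 12393 genes.

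Genes listed as corepressors were called at shares close to those of all genes, while upstream signals were called lower more often. Of 10 genes listed as corepressors and opposing factors 1 was lower (10%, against 9.09% of all genes) and 1 higher (10%, against 8.66%). The other 8 were not called, and the median difference was -0.24. The list gives no direction of action and holds Sirt1, so these counts may mix genes that oppose PGC-1 and genes that aid it. As deposited, 0 of the 10 were lower and 2 higher, against 369 lower and 2373 higher of all 12393 genes. In the scaled fit (limma) 2 were lower and 2 higher at an unadjusted p under 0.05. The lower one was Kat2b, an acetyltransferase, at -2.13 ± 0.39, with 363.4 to 1523.2 in tumours and 3623.1 to 4176.5 in muscles. It was -1.37 as the mean of its probe sets, and was not called as deposited (adjusted p = 0.0858). The higher one was Mybbp1a, a repressor of PGC-1 alpha, at 1.69 ± 0.45, with 1316.1 to 5705.6 in tumours and 477.6 to 880.1 in muscles, though the mean of its probe sets was not called (adjusted p = 0.16), and the call was lost without muscle 2 (0.108) or muscle 3 (0.0826). Of 17 upstream signalling genes 5 were lower (29.4%, against 9.09% of all genes) and 1 higher (5.9%, against 8.66%), with a median of -0.35. As deposited, 2 were lower and 3 higher. In that setting the balance turned over all 12393 genes too, with 369 lower and 2373 higher. The lower ones included Mapk12, the p38 gamma kinase of muscle (-3.59 ± 0.44), and the CaMKII subunits Camk2b (-2.43 ± 0.49) and Camk2g (-2.39 ± 0.42). As the mean of its probe sets Camk2g was -1.39, and Camk2b was not called as deposited (adjusted p = 0.0547). Camkk2, a kinase upstream of AMPK, was higher at 1.37 ± 0.36, but not as the mean of its probe sets (adjusted p = 0.339), nor without muscle 1 (0.0902) or muscle 3 (0.0783).

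Most of the measured target genes of lipid use and respiration were lower in the tumours. Of 23 PPAR targets 17 were lower (73.9%, against 9.09% of all genes), 1 higher (4.3%, against 8.66%) and 5 not called. Their median difference was -1.93, against 0.10 for all genes. Pdk4, the kinase that turns glucose oxidation off, had 77.4 to 334.0 in tumours and 4829.0 to 5239.1 in muscles, and differed by -4.79 ± 0.42 (limma adjusted p = 1.2e-05). Lpl, the lipase that frees fatty acids from lipoproteins, differed by -3.89 ± 0.64, and Fabp3, the muscle fatty acid-binding protein, by -3.54 ± 0.52 (-2.88 without muscle 1). The higher one was Plin2, which coats lipid droplets, with 1592.1 to 3686.6 in tumours and 770.2 to 1195.9 in muscles (1.28 ± 0.33), a call lost without muscle 3 (adjusted p = 0.127) and with the replicate block (0.0768). Cpt1a, the liver form of the outer-membrane palmitoyltransferase, differed by 0.98 and was not called (adjusted p = 0.193); it was named after its values were seen. Some of these genes are also active in fat cells, and 4 of 6 adipocyte markers were lower (66.7%, against 9.09% of all genes). The sum of the 6 markers was 294 to 2079 in tumours and 8703 to 11191 in muscles. Adipoq was at 9.8 to 44.3 in tumours and 1842.2 to 3248.5 in muscles, and no marker was at 0. The part of fat cells in the lipid genes was not tested. As deposited, 7 of the 23 were called lower and 2 higher, against 369 lower and 2373 higher of all 12393 genes.

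Of 30 targets of ERR and NRF1 in respiration 23 were lower (76.7%, against 9.09% of all genes), 0 higher (against 8.66%) and 7 not called. Their median was -1.91, against 0.10 for all genes. At an unadjusted p under 0.05 (limma) the counts were 24 lower and 0 higher. The deepest were the muscle forms of cytochrome oxidase subunits, Cox7a1 (-4.76 ± 0.81), Cox6a2 (-3.69 ± 1.06) and Cox8b (-3.46 ± 0.82). In tumour 1 Cox6a2 had 17311.9, above all 3 muscles (5045.1 to 15185.4), while the other tumours had 214.7 to 434.3. Its difference was -4.64 without tumour 1, and its call was lost without tumour 3, 4 or 5 (adjusted p = 0.0523 to 0.0548) or without any muscle (0.0592 to 0.118). The Cox8b call was lost without muscle 1 (0.0661), where its difference was -2.85, and it was -4.10 without tumour 1. Cox7a1 stayed called without any 1 array, at -4.15 without muscle 1. Leaving out 1 array gave 16 to 24 of the 30 lower. As deposited, 8 were lower and 1 higher, against 369 lower and 2373 higher of all 12393 genes. In the RefSeq start regions of 25 of these genes, 12% held the ERR half-site, 20.0% the NRF1 site, 28% the cyclic AMP half-site and 8.0% the Ets site, against 4.4%, 9.4%, 11.5% and 7.2% of 9887 measured genes. These shares rest on 3, 5, 7 and 2 genes and were not tested. In the same order, the motifs were held by 1, 1, 2 and 2 of 19 PPAR targets with a start region. Among 12 genes of mitochondrial DNA transcription and replication they were held by 0, 1, 3 and 2. Whether the lists differ in these motifs was not tested.

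Genes that work beside TFAM on mitochondrial DNA were mostly uncalled, as were most of all genes tested. Of 15 measured, 2 were lower (13.3%, against 9.09% of all genes), 0 higher (against 8.66%) and 13 not called, with a median of -0.35. At an unadjusted p under 0.05 (limma) 4 were lower and 0 higher. Tfb2m, the partner of TFAM in starting transcription, had 332.6 to 609.1 in tumours and 1848.7 to 2121.6 in muscles, and differed by -2.02 ± 0.31. Tefm, the elongation factor, differed by -1.54 ± 0.35, a call lost without muscle 2 (adjusted p = 0.062). Polrmt, the polymerase itself, differed by -0.35 and was not called (adjusted p = 0.76). Neither Tfb2m (adjusted p = 0.107) nor Tefm (0.358) was called as deposited.

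Of 12 muscle and vascular genes listed as dependent on PGC-1, 4 were lower (33.3%, against 9.09% of all genes), 0 higher (against 8.66%) and 8 not called. Their median was -1.45. At an unadjusted p under 0.05 (limma) 7 were lower and 0 higher. The list gives no direction of regulation, so these counts may mix genes that PGC-1 raises and genes that it lowers. Mb (myoglobin) differed by -4.83 ± 0.96, Myh7 (slow myosin heavy chain) by -3.90 ± 0.73 and Slc2a4 (the insulin-regulated glucose transporter) by -3.88 ± 0.45. As the mean of its probe sets Mb was -2.16, and without tumour 5 it was -4.22. These genes are also fibre genes, and 11 of the 12 fibre markers were called lower (91.7%, against 9.09% of all genes). The part of fibre content in these lists was not tested.

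**Figure D4:**
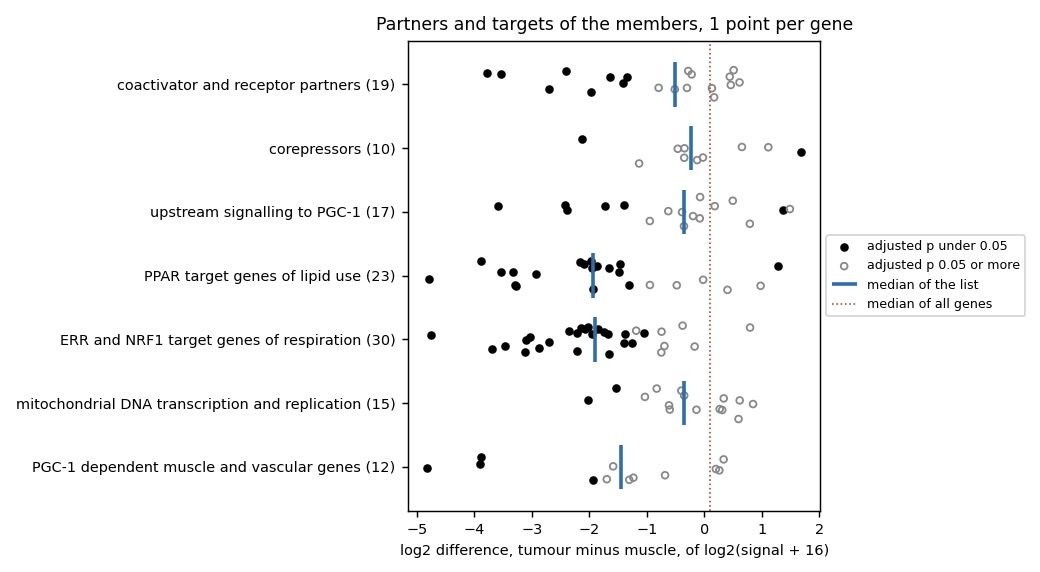
Log2 differences, tumour minus muscle, of every measured gene of the 7 lists of partners and targets (1 point a gene, number measured in brackets); filled points have an adjusted p under 0.05, blue bars are list medians and the dotted line is the median of all genes. Medians of the PPAR and the ERR and NRF1 target lists lie at -1.93 and -1.91, those of corepressors and of mitochondrial DNA genes at -0.24 and -0.35.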

How the data were processed

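RNA was extracted with Trizol and RNAeasy, per the labels' protocols. What the authors deposited is 1 intensity for each probe set on each array, on a linear scale, computed with MAS5 per the submitters' processing notes, which give no version. Their scaling target and filters are not stated in those notes. The trimmed mean (2% at each end) was within 1 of 500 on 7 arrays but 294.31 on muscle 1 and 140.92 on muscle 3, so each array was multiplied to 500. Symbols came from the platform annotation, and the 64 controls were not tested. Each gene was read by its brightest probe set, that with the highest mean log2(signal + 16) over the 9 arrays. Differences were tested on log2(signal + 16) with limma 3.58.1 (lmFit, eBayes with intensity trend, R 4.3.3) and Benjamini-Hochberg adjustment over 12393 genes or 22626 probe sets, called under 0.05. The fit was tested on simulated data. Folds of dim genes are understated by the offset, and the number of arrays limits the precision. The members, lists, named genes and alternatives were chosen with earlier results of these data known, so lists are given by counts and medians. Named were all members, up to 3 called genes per list in its main direction and 2 in the other, and the 3 genes most like each member; others are marked as named after their values were seen. Marker lists also covered macrophages (6 of 10 called higher, 0 lower) and dividing cells (6 of 6 higher). Others were endothelium (1 of 8 lower), fibroblasts (1 of 8 lower) and T cells (0 of 6 called, 0 at an unadjusted p under 0.05 by limma). Of all genes 9.09% were called lower and 8.66% higher. For counts at an unadjusted p under 0.05, the share of all genes was not counted.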

Additional observations from a re-analysis of the deposited data

Results flagged for a closer look

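In 3 genes, 1 tumour stood apart from the other 5 by a gap above the 95% critical value of Dixon's test on the log2(signal + 16) scale. None was a member. Cox6a2 was 17311.9 in tumour 1, against 214.7 to 434.3 in the other tumours, and Cox8b was 802.2 in tumour 1, against 29.1 to 59.4. Lpl was 141.4 in tumour 1, the lowest, against 899.9 to 2453.0. All 3 concern tumour 1. Of 35 probe sets and genes examined, 3 met the rule, and chance alone meets it in about 1 of 20 groups. The 3 muscles are too few for this test.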

How the results depend on the processing

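Of 4 member genes called, the counts were 1 as deposited, 2 among brighter genes only (where Ppargc1a, Ppara and Ppard are not tested), 2 with the replicate block, 2 on the same 6 arrays without it, 2 to 5 with 1 array left out and 0 without muscles 2 and 3, where the spread comes from the tumours alone; of 8 probe sets called, all lower, the counts were 3 as deposited (2 lower, both of Ppargc1a, and 1 higher, Nrf1 1420978_at), 5 on the 6 arrays, 5 to 9 with 1 array left out and 0 without muscles 2 and 3. All genes called numbered 2200 (48.8% higher), 2742 as deposited (86.5% higher), 1089 on the 6 arrays, 1110 to 2769 with 1 array left out and 173 without muscles 2 and 3; probe sets called numbered 3488 (51.1% higher), 4496 as deposited (87% higher), and 1799, 1700 to 4369 and 250 in the other 3 settings. Differences that lost their call as deposited were -1.0025 for Ppargc1a, -1.20 for Esrra and -0.50 for Tfam. Without muscles 2 and 3, Ppargc1a (-1.68), Ppara (-2.05), Esrra (-1.35) and Tfam (-1.40) were uncalled, and Esrrg was -0.21. Tfam was also uncalled with quantile normalization (-1.45) and without the trend (-1.34). With 1 array left out the ranges were -1.98 to -1.63 for Ppargc1a, -1.41 to -0.91 for Ppargc1b, -1.44 to -1.08 for Tfam and -0.15 to 0.50 for Esrrg. Without tumours 1 and 4 Ppargc1b was -1.45, called, and Esrrg -0.29. The labels do not say if replicate numbers pair the samples. Same-numbered arrays correlated at 0.232, 0.207 and -0.019 in their deviations. Arrays of unlike number were not compared, so these values cannot decide it. On tumours 1 to 3 and the 3 muscles, blocked or not, Ppara was -1.96 and Tfam -1.49, both uncalled, and Esrrg was -0.0063; the block gave 1467 called genes. The unblocked fit was added after seeing the data. The cause of these changes was not tested, beyond the fewer arrays or genes. Of the other gene and probe set differences under alternatives, 458 kept their direction and side of the threshold, 59 lost the call, 7 gained it and none changed direction. All 7 gains were those of Nrf1 1420978_at. Of the list counts, 122 stayed within 1.5 times and 18 fell further. As deposited the lower and higher calls were 2 and 3 for upstream signalling (5 and 1 after scaling) and 0 and 2 for corepressors (1 and 1).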

Other observations

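Of 10 macrophage markers 6 were called higher in tumours (60.0%), and all 6 genes of dividing cells were, against 8.66% of all genes. Summed over 10 macrophage markers the signal was 8660 to 31991 in tumours and 3228 to 4872 in muscles, with Csf1r, the receptor for macrophage growth factor, at 4091.4 to 26580.1 in tumours and 1228.1 to 1890.8 in muscles. Csf1r makes up most of the highest sum, that of tumour 1, and Itgam differed by -1.01, not called. Summed over 6 genes of dividing cells it was 6908 to 8082 in tumours and 427 to 1250 in muscles. For the ERR and NRF1 target genes the median level, as a percent of the muscle mean, was 24.8, 24.4, 30.7, 22.8, 28.6 and 32.2 in tumours 1 to 6. For genes of mitochondrial DNA it was 76.7, 59.6, 105.4, 59.5, 99.2 and 106.8.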
